A study of Mus musculus with 27 samples.

Results

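The genes described here encode the proteins of the cytosolic ribosome in Ba/F3 cells, an established mouse pro-B cell line that grows only with the cytokine interleukin 3 (IL3). They were chosen by symbol (Rpl or Rps followed by a number, or Rplp0, Rplp1, Rplp2 or Rpsa), with rows named as pseudogenes left out. The rule found 81 of the 24000 genes in the count files, of which 49 belong to the large and 32 to the small subunit. PolyA RNA was sequenced from 27 libraries in 7 groups. Cells with a lentiviral short hairpin against STAT5A, STAT5B, LSD1 or HDAC3 gave 3 libraries each, and cells with a no-target hairpin gave 5. All hairpin cells had been kept under puromycin for at least 1 week. Untransduced wild-type cells stimulated with IL3 gave 5 libraries and untransduced cells left without IL3 gave 5. Every group was deprived of IL3 for 6 h, and all groups except the deprived wild type then received IL3 at 10 ng/mL for 30 min. The IL3 receptor signals through the transcription factors STAT5A and STAT5B, while LSD1 removes methyl groups and HDAC3 acetyl groups from histones.

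Ribosomal proteins are made in nearly equal numbers, imported into the nucleolus and assembled on ribosomal RNA into a large and a small subunit. In mammals their mRNAs are among the most abundant of growing cells. They usually begin with a 5′ terminal oligopyrimidine (TOP) tract, through which the growth-factor-responsive kinase mTORC1 controls their translation. Most of these genes also have many processed pseudogenes, which share long stretches of sequence with the parent mRNA.

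No ribosomal protein gene passed the test in any of the 6 comparisons, yet the family moved together from library to library. Its summed share of the reads counted in genes ran from 5.18 to 14.8%. It was lower after IL3 in each of the 5 numbered pairs of wild-type libraries. It was lowest in 5 hairpin libraries that also had the most reads outside genes. Leaving out those 5 moved the median fold changes of the hairpin comparisons, except that of LSD1.

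The libraries held 5.48 to 33.8 M reads counted in genes. The targeted genes were lower in every library of their own hairpin than in every no-target library: Stat5a had 23.7 to 27.5 CPM (counts scaled to library size) in STAT5A-hairpin cells, against 50.5 to 92.0 CPM in no-target cells. Of 14 genes listed as pro-B markers, 5 reached a mean of 1 CPM in each group. They were Cd79a, Cd79b and the IL3 receptor chains Csf2rb, Csf2rb2 and Il3ra, and the receptor chains are not particular to pro-B cells. Other listed markers, among them Pax5, Ebf1, Rag1, Rag2, Igll1, Il7r, Vpreb1 and Vpreb2, stayed under 1 CPM in all 27 libraries. The pro-B label thus rests on few of its defining genes. T cell markers summed to at most 11.4 CPM. In 5 libraries (LSD1 hairpin replicate 1, HDAC3 hairpin replicates 1 and 2, and no-target replicates 1 and 3), 14.0 to 24.9% of reads fell outside genes. In 4 others (STAT5A hairpin replicate 3, STAT5B hairpin replicate 2, and replicate 2 of both wild-type groups), only 0.177 to 0.190 multi-mapped reads were recorded per counted read. The 5 libraries rich in reads outside genes came next, at 0.200 to 0.219, and the remaining 18 had 0.250 to 0.295. Both classes were set from these library values and not from the labels, and results are given with and without them.

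Levels per kilobase of transcript, averaged over all 27 libraries, ran from 246 to 8914 CPM per kb over the 73 members that averaged at least 100 CPM. Rplp1, a protein of the flexible stalk that recruits elongation factors to the large subunit, was highest at 8914 CPM per kb. It was followed by Rpl32 at 5636, Rpl8 at 5382 and Rplp0, the base of the same stalk, at 3974 CPM per kb. The median of the family was 1360 CPM per kb. Lengths were those of 1 annotated transcript per gene, from 271 to 3706 bases, and were not checked against the reads. Rps20, with the longest, averaged 2137 CPM but had 577 CPM per kb. Ranks per kb and shares of windows thus depend on the transcript chosen. The other 8 members lay under 100 CPM.

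**Figure D1:**
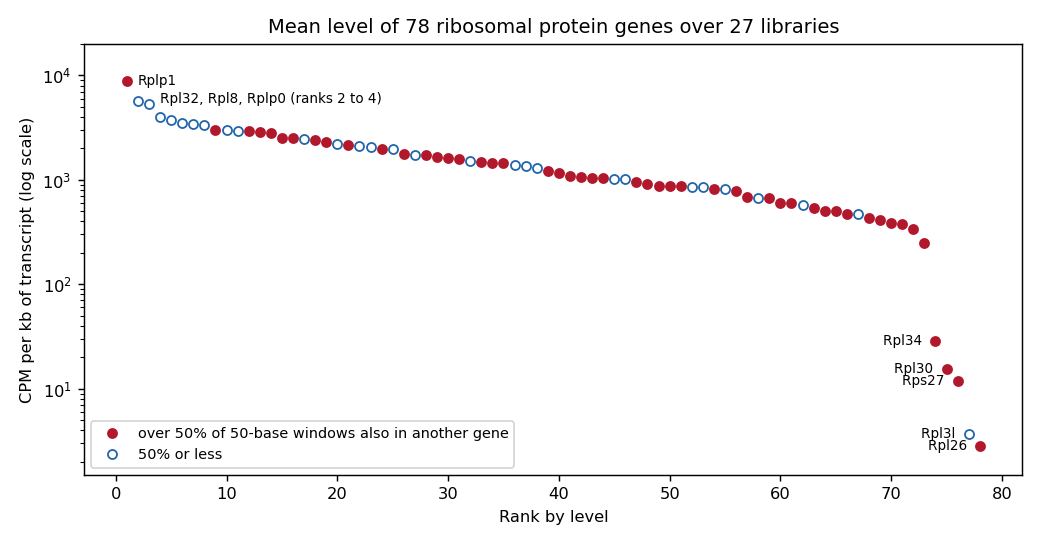
Mean level over 27 libraries of the 78 ribosomal protein genes that passed the filter on low counts, as CPM per kb of transcript on a log scale, ranked from highest to lowest. Filled points share over 50% of their 50-base windows with another annotated gene; Rplp1 leads at 8914 CPM per kb, and Rpl34, Rpl30, Rps27, Rpl3l and Rpl26 stand apart between 28.6 and 2.81 CPM per kb.

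The 8 low genes were of different kinds. Rpl10l and Rpl39l, paralogues best known from testis, had 1 and 7 reads in all libraries together, and Rps4l, which GENCODE annotates as a transcribed pseudogene, had 6. These 3 failed the filter on low counts. Rpl3l, the striated-muscle paralogue of Rpl3, had 3.69 CPM per kb, against 1223 CPM per kb for Rpl3, and shares none of its 50-base windows with another gene. The remaining 4 encode core subunits that every ribosome holds: Rpl34 had 28.6, Rpl30 15.4, Rps27 11.8 and Rpl26 2.81 CPM per kb. Between 50.6% (Rpl34) and 98.6% (Rps27) of the windows of these 4 transcripts also occur in another annotated gene. Rps27l, the paralogue of Rps27, had 471 CPM per kb, with 22.4% of its windows shared. Reads with several matching positions were recorded in a summary line apart from the gene counts, and the counting settings are not given in the sources used here. The levels of genes with near-identical copies are thus uncertain and may read too low, but the part of this in the 4 low levels was not tested. Rpl35, Rps10 and Rps18 shared 95.1, 92.4 and 86.7% of their windows and had 865, 2849 and 3005 CPM per kb. Over the family the median share of such windows was 56.5%, and 50 of the 80 genes with a transcript lay over 50%. These 50 had a median level of 1001 CPM per kb, against 1630 CPM per kb in the other 30. The 50 include the 4 low core genes, and the 30 include the paralogues Rpl3l, Rpl10l and Rpl39l.

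The 5′ ends of several members show the pyrimidine tract for which the class is named. RefSeq start-site windows (build GRCm38.p6) were on hand for 60 of the 81 genes. The sequences below run from 15 bases before to 15 bases after the annotated start, on the gene's own strand, with the longest run of C and T in capitals. They were chosen because the results turn on these genes.
Rps6: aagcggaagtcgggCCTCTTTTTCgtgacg
Rpl35: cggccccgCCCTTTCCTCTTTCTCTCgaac
Rpl28: ccgcctctcgtgTCTCTCTTTCCgtctccg
Rplp2: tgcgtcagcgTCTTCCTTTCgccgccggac
Rpl41: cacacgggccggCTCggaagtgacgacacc
Rpl10: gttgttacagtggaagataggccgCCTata
Rpl3l: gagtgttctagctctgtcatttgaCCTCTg

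These windows lie at chr4:86857353-86857382 (Rps6, minus strand), chr2:39005117-39005146 (Rpl35, minus), chr7:4792950-4792979 (Rpl28, plus), chr7:141447636-141447665 (Rplp2, plus), chr10:128549154-128549183 (Rpl41, minus), chrX:74270801-74270830 (Rpl10, plus) and chr17:24727811-24727840 (Rpl3l, plus). The run spanned 18 bases in Rpl35, 11 in Rpl28 and 10 in each of Rps6 and Rplp2, and it covered the start site in all 4. It was 3 bases long in the windows of Rpl41 and Rpl10 and 5 bases long in that of Rpl3l. Within 20 bases of the start on either side, 29 of 60 members (48.3%) had at least 8 pyrimidines in a row on the sense strand, against 18.4% of 27025 genes. The mirror image, 8 purines in a row, was present in 5 members (8.33%), against 20.2% of all genes. Over the full 300 bases, the ETS-type letters CCGGAAG occurred on either strand in 25 members (41.7%), against 9.93% of all genes, 21.1% of the genes tested here and 35.8% of mitochondrial ribosomal protein genes. The STAT5-type letters TTCNNNGAA occurred in 3 members (5.0%), against 9.55% of all genes and 8.55% of the genes tested. CACGTG occurred in 6 members (10.0%), against 8.09% of all genes but 11.6% of the genes tested. TATAAA occurred in 6 (10.0%), against 15.7% of all genes but 8.4% of the genes tested. AAGATGGC occurred in 5 (8.33%), against 3.19% of all genes, 5.57% of the genes tested and 17.9% of mitochondrial ribosomal protein genes. Each motif was counted on its own, and overlaps between motifs were not removed. A gene was counted if any of its windows held the letters or the run. A match describes letters in a window and not a bound site.

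The summed share of the family gives its level in each library as a percentage of reads counted in genes. It was 9.78, 10.1 and 11.6% in the STAT5A-hairpin libraries (replicates 1 to 3; mean 10.5 ± 0.946%, SD, n = 3). It was 9.08, 12.6 and 10.1% in the STAT5B-hairpin libraries (10.6 ± 1.80%, n = 3). The highest of each triplet was the library with few multi-mapped reads.

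The LSD1-hairpin libraries had shares of 5.36, 9.88 and 9.28% (8.18 ± 2.45%, n = 3). The HDAC3-hairpin libraries had 5.43, 5.30 and 10.3% (7.01 ± 2.85%, n = 3). The no-target libraries had 6.68, 9.36, 5.18, 9.28 and 9.58% (8.01 ± 1.98%, n = 5). The 5 lowest of these shares came from the libraries with 14.0 to 24.9% of reads outside genes.

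IL3-stimulated wild-type libraries had shares of 11.0, 11.8, 9.05, 9.73 and 8.33% (9.98 ± 1.41%, n = 5), and deprived ones 11.6, 12.9, 14.8, 10.9 and 10.1% (12.1 ± 1.87%, n = 5). The 2 wild-type groups overlapped, as did every hairpin group with the no-target group except STAT5A, whose lowest library (9.78%) stood above the highest no-target library (9.58%). Among the 14 IL3-stimulated libraries of neither class, the share lay between 8.33 and 11.0%. In these, no-target cells had 9.28 to 9.58% (n = 3) and LSD1-hairpin cells 9.28 and 9.88%, and the 1 remaining HDAC3-hairpin library had 10.3%. In bulk RNA, fewer cells with a high content and less of this RNA in every cell cannot be told apart. Nor does a share tell a change in these mRNAs from an opposite change in all others.

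**Figure D2:**
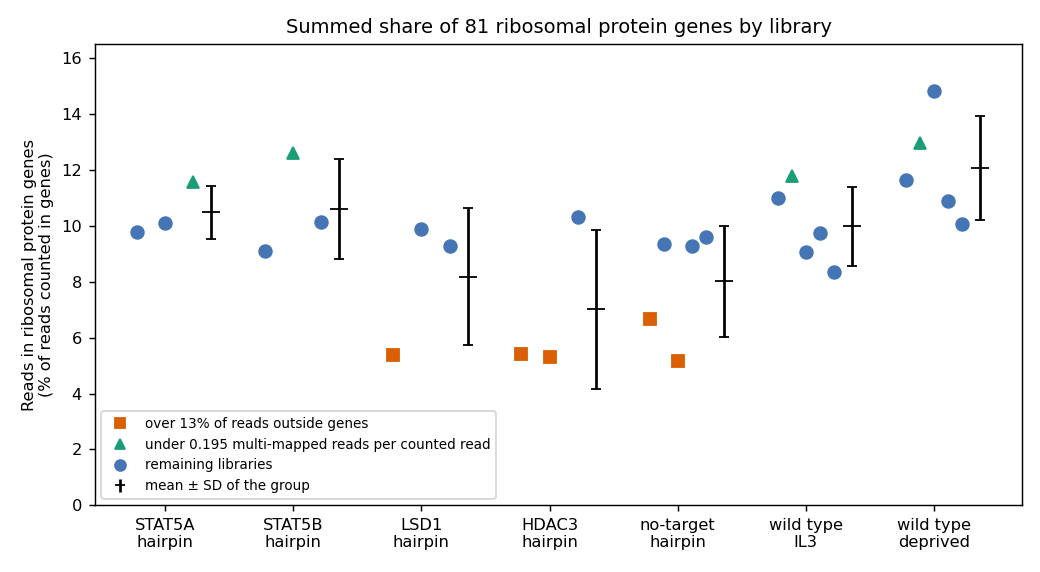
Share of reads in the 81 ribosomal protein genes (% of reads counted in genes) for each library, by group, with replicates in number order from left to right and the group mean ± SD at the right of each group. Squares, libraries with over 13% of reads outside genes (5.18 to 6.68%); triangles, libraries with few multi-mapped reads (11.6 to 12.9%); circles, the remaining 18 (8.33 to 14.8%).

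The 2 no-target libraries rich in reads outside genes can be set against the other 3 with no difference in hairpin. All 73 well-expressed members had a lower mean in the 2 libraries, by a median of −0.83 on the log2 scale, against −0.04 over all genes tested. For 69 of the 73, both libraries lay below all 3 others, which was true of 25.9% of the 12073 genes tested. The ratio of large-subunit to small-subunit reads was 1.45 to 1.49 in the 5 such libraries, against 1.33 to 1.44 in the 18 libraries of neither class. The mitochondrial ribosomal proteins, made by a separate set of 76 nuclear genes, also took the smallest shares there (0.294 to 0.411%, against 0.452 to 0.800%). Depth was low as well, at 5.48 to 7.53 M counted reads. The part of library quality in these shares was not tested.

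**Figure D3:**
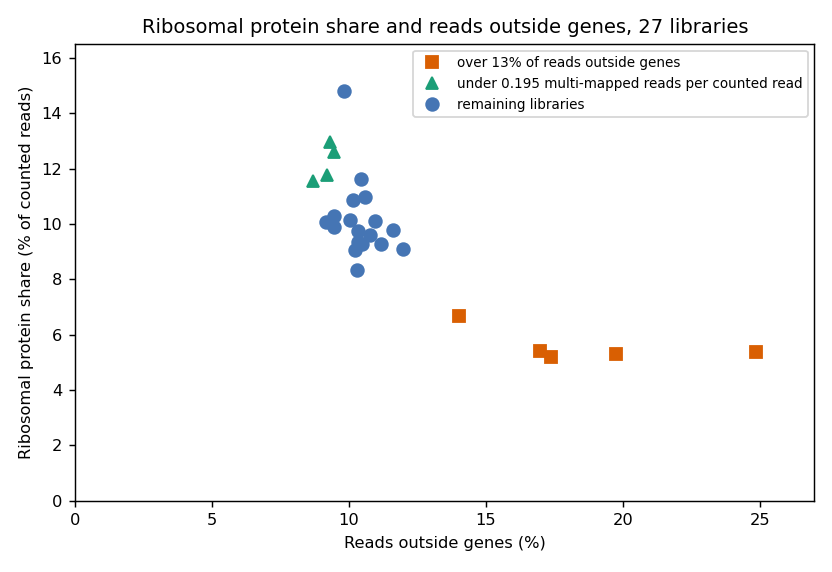
Share of reads in the ribosomal protein genes (% of counted reads, vertical axis) against the share of reads outside genes (%, horizontal axis) for 27 libraries, marked by the same classes as the plot of shares by group. The 5 libraries beyond 13% sit at 5.18 to 6.68%, below the other 22.

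Individual members mostly followed the family. After subtraction of the family median in each library, the standard deviation over 27 libraries had a median of 0.24 log2 units over the 73 well-expressed members and was lowest for Rpl36a (0.10). It was largest for Rpl10 (0.92), Rpl17 (0.81), Rpl28 (0.71), Rps23 (0.56) and Rpl23a (0.55), which were named here after their values were seen. Between 50.5% (Rpl28) and 92.1% (Rpl10) of the windows of these 5 transcripts are shared with other genes, as are 85.5% of those of Rpl36a. The median standard deviation was 0.25 (0.10 to 0.92) in the 46 well-expressed members with over 50% of windows shared. It was 0.24 (0.11 to 0.36) in the 27 with 50% or less. The part of shared sequence in this variation was not tested.

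Rpl10 encodes a late-joining protein near the peptidyl-transferase site. Its level was 770, 354 and 304 CPM in the STAT5A-hairpin libraries and 743, 316 and 200 CPM in the STAT5B-hairpin libraries. It was 355, 863 and 398 CPM with the LSD1 hairpin, 148, 378 and 916 CPM with the HDAC3 hairpin, and 164, 263, 380, 733 and 623 CPM with the no-target hairpin. Within each hairpin group, 1 or more libraries thus had over 2 times the level of another. IL3-stimulated wild-type libraries had 419, 300, 122, 149 and 133 CPM, and deprived ones 421, 319, 182, 146 and 147 CPM. In wild type the values went with the replicate number more than with IL3: replicate 1 was highest and replicate 2 next in both conditions. Across 27 libraries and 73 members, the profiles relative to the family that were most like that of Rpl10 were those of Rpl17 (Pearson r = 0.98), Rpl23a (0.97), Rps12 (0.95), Rpl9 (0.95) and Rpl21 (0.92). These coefficients describe the libraries only, since the points share library preparation, depth and the same family median.

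Rps23 lies at the decoding centre, and Rpl41 is a short basic peptide between the subunits. Rps23 had 263, 206 and 561 CPM in the STAT5A-hairpin libraries and 217, 528 and 122 CPM in the STAT5B-hairpin libraries, against 70.1 to 255 CPM in no-target cells. In wild type it had 216, 610, 117, 126 and 107 CPM with IL3 and 232, 643, 222, 136 and 133 CPM without. The 4 libraries with few multi-mapped reads were the 4 highest of all 27. Rpl41 reached 2008 to 2531 CPM in these 4 and 2407 CPM in deprived wild-type replicate 3, and no other library exceeded 1171 CPM. Rps23 (r = 0.68) and Rpsa (r = 0.64), a small-subunit protein also known as a laminin receptor, had the profiles most like that of Rpl41.

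**Figure D4:**
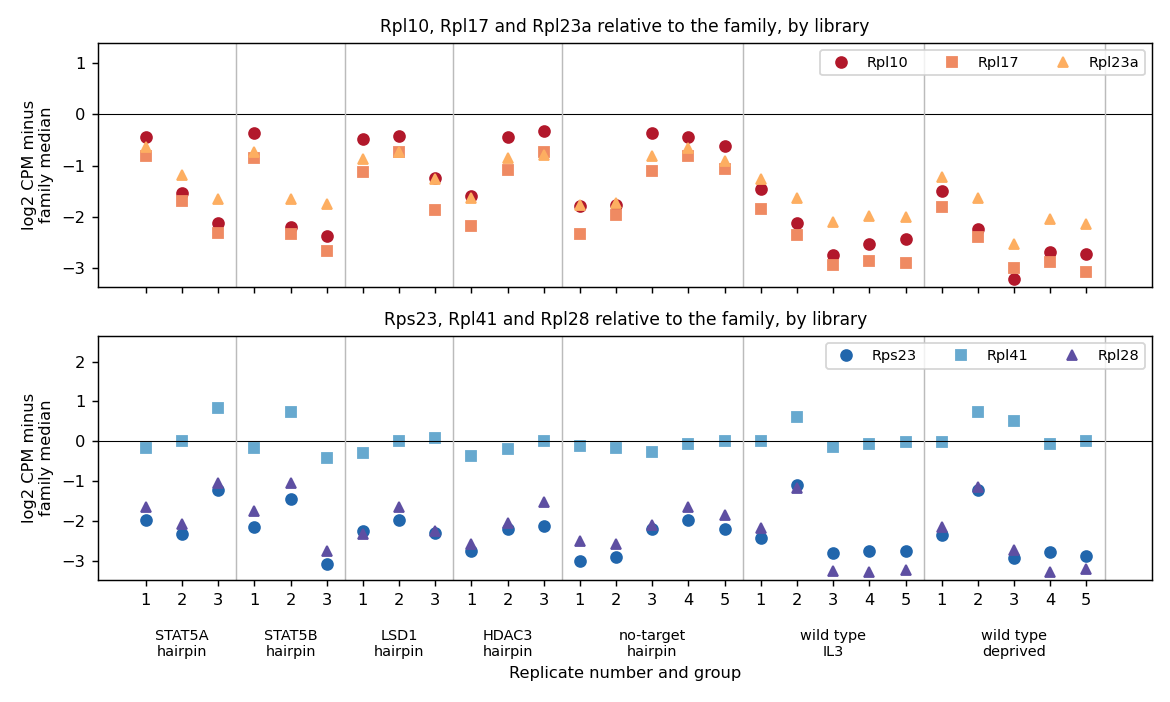
Level of 6 members in each of 27 libraries as log2 CPM minus the family median of that library. Rpl10, Rpl17 and Rpl23a (top) vary together and lie close between equal replicate numbers in wild type; Rps23, Rpl41 and Rpl28 (bottom) peak in STAT5A hairpin replicate 3, STAT5B hairpin replicate 2 and both wild-type replicates 2.

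The comparison of IL3-stimulated with deprived wild type asks what 30 min of the cytokine does. Of the 78 members tested, 77 had lower fitted levels with IL3, with a median log2 fold change of −0.31, against −0.02 over all genes tested. With a threshold of 0.05 on the Benjamini-Hochberg adjusted p over 12073 genes, edgeR's quasi-likelihood test called no member and 3.82% of all genes. None had an unadjusted p under 0.05 either, against 14.0% of all genes, and DESeq2 also called 0. For 3 members (Rpl14, Rps14 and Rps9) all stimulated libraries lay below all deprived ones, as did 4.51% of all genes. For no member did they all lie above, against 6.73% of all genes.

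The smallest adjusted p belonged to Rps26, a protein at the mRNA exit of the small subunit. It had 771, 721, 662, 706 and 613 CPM with IL3, against 831, 867, 1763, 761 and 764 CPM without. Only IL3 replicate 1 overlapped the deprived range, and deprived replicate 3 stood far above the rest. The log2 fold change was −0.52 ± 0.26 (SE; adjusted p = 0.379 by edgeR's quasi-likelihood test). Rpl41 (−0.56), Rps21 (−0.55) and Rplp1 (−0.53) had the lowest fold changes. Rplp1 had 4897, 5554, 4342, 4940 and 4085 CPM with IL3, against 5213, 6347, 11537, 5473 and 5880 CPM without. Rps6, the substrate of S6 kinase downstream of mTORC1, had a log2 fold change of −0.26 ± 0.23. Rpl5 and Rpl11, which with 5S ribosomal RNA bind the p53 regulator Mdm2, had −0.25 and −0.33. Rps19, the gene most often mutated in human Diamond-Blackfan anaemia, had −0.39, the stalk genes Rplp0 and Rplp2 had −0.23 and −0.49, and Rps27a, made as a fusion with ubiquitin, had −0.31. The paralogues Rpl3l and Rps27l both had −0.24. Rps27 (0.20) was the only member with a positive value, and Rpl26 (−0.02) and Rpl10 (−0.11) came next. The summed level of 6 erythroid markers, of which only Klf1 and Gata1 reached 1 CPM, was 333 to 517 CPM with IL3, against 484 to 707 CPM without; its part in these values was not tested.

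Equal replicate numbers paired the wild-type libraries, so each pair can be read on its own. In replicates 1 to 5, members lower with IL3 numbered 75, 73, 78, 73 and 77 of 78. The median log2 difference was −0.07, −0.14, −0.92, −0.14 and −0.29, and −0.01 or −0.02 over all genes in each pair. A total of 70 of the 78 members were lower in all 5 pairs and 0 were higher in all 5, while 23.3% of all genes tested were lower in all 5. The summed share with IL3 was 0.944, 0.910, 0.611, 0.895 and 0.829 times that of its deprived partner. The share ratio was thus nearest 1 in replicate 1 and furthest from it in replicate 3, whose deprived library had the highest share of all 27. Without deprived replicate 3 the median log2 fold change was −0.20. A fit to the wild-type libraries alone with the replicate number as a block called 2504 genes (22.4% of 11195) and 0 members, with a median of −0.31. The same fit without the block called 1170 genes and 0 members. In the fit with the block, 38 members had an unadjusted p under 0.05, against 42.3% of all genes. Its smallest adjusted p was 0.0645 for Rpl39, by edgeR's quasi-likelihood test.

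The 29 tested genes with the start-site tract had a median log2 fold change of −0.32 and the 29 without it −0.29. The tract was read at annotated starts, so genes without it here may still carry one, and the split cannot decide its part. Related gene groups were read beside the family. None of 76 mitochondrial ribosomal protein genes was called, with a median of −0.26. None of 20 translation factors and other TOP mRNAs was called, with a median of −0.12. The 7 ribosomal protein genes outside the symbol rule (among them Fau, Rps3a1, Gnb2l1, Rpl36al, Rpl22l1 and Rpl7l1) had a median of −0.27 and 0 calls.

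Ribosome assembly factors and ribosomal protein chaperones include the genes that passed the test here. Of 24, 5 were called higher with IL3 and 0 lower, where 362 of the 12073 genes tested were called higher. Fold changes were positive for 17 of the 24 and negative for 7, with a median log2 fold change of 0.35, against −0.02 over all genes. Rrs1, which brings the 5S particle into the large subunit, had 41.1 to 85.2 CPM with IL3 (median 65.5), against 23.2 to 32.8 CPM without (median 28.0). The log2 fold change was 1.16 ± 0.24 (SE; adjusted p = 0.00423 by edgeR's quasi-likelihood test), and the groups did not overlap. Gnl3, the nucleolar GTPase nucleostemin, rose by 1.22, Tsr1, a small-subunit maturation factor, by 1.06, the RNA helicase Ddx21 by 0.75 and the small-subunit export factor Ltv1 by 0.46. Ltv1 was not called without IL3 replicate 4 or with no filter on low counts (adjusted p up to 0.0601), nor Ddx21 without any 1 of 7 libraries (replicates 2, 3, 4 and 5 with IL3 and 2, 4 and 5 without; adjusted p up to 0.108). Among 15 mTORC1 components and TOP regulators, the mTORC1 inhibitor Ddit4 fell by 1.70 (adjusted p = 0.00315), with 16.8 to 46.1 CPM with IL3, against 58.4 to 111 CPM without. No other of the 15 was called.

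STAT5A-hairpin cells were set against no-target cells at the same IL3 condition. All 78 tested members had positive log2 fold changes, with a median of 0.46, against −0.00 over all genes. None was called by edgeR's quasi-likelihood test, against 0.0663% of all genes, and DESeq2 called 0 too. Unadjusted p under 0.05 was reached by 4 members, against 8.42% of all genes. For 11 members the groups did not overlap (Rpl3l, Rpl5, Rpl7, Rpl23, Rpl24, Rpl36a, Rpl38, Rps15a, Rps18, Rps26 and Rpsa), as was true of 2.52% of all genes in this direction. In the opposite direction there were 0 members, against 2.28% of all genes.

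Rpl5 had 1172, 1181 and 1768 CPM in STAT5A-hairpin cells, against 565, 828, 611, 1135 and 954 CPM in no-target cells. The lowest hairpin library stood just above the highest control. Its log2 fold change was 0.75 ± 0.34 (SE; adjusted p = 0.566 by edgeR's quasi-likelihood test). The highest fold changes were those of Rps23 (1.17), Rpl28 (1.09) and Rpl41 (0.99), which were high in replicate 3. The lowest were those of Rpl34 (0.07), Rps27 (0.09) and Rpl4 (0.13). Rps6, Rps19 and Rplp0 had 0.38, 0.58 and 0.50. Without the 5 libraries rich in reads outside genes, 68 of 78 members were positive with a median of 0.20. Without the 4 with few multi-mapped reads as well, 61 were positive with a median of 0.10. Of 8 myeloid markers, 5 averaged at least 1 CPM in STAT5A-hairpin cells and 4 in no-target cells, and 1 was called higher. Their summed level was 254 to 477 CPM in STAT5A-hairpin cells, against 141 to 272 CPM in no-target cells, while Csf1r and Itgam stayed under 1 CPM in both. Their part in the ribosomal protein values was not tested.

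STAT5B-hairpin cells gave similar values against the same 5 controls. Positive log2 fold changes were found for 77 of 78 members, with a median of 0.46, against −0.01 over all genes. No member was called by edgeR's quasi-likelihood test, against 0.34% of all genes, or by DESeq2. Unadjusted p under 0.05 was reached by 10 members, against 15.9% of all genes, and the groups overlapped for every member, while 2.91% of all genes stood wholly higher and 2.82% wholly lower.

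Rpl35, a protein at the rim of the exit tunnel whose start site carries the tract of 18 pyrimidines, had the smallest adjusted p. It had 667, 1182 and 1333 CPM in STAT5B-hairpin cells, against 453, 679, 334, 711 and 731 CPM in no-target cells. Replicate 1 of the hairpin lay within the control range. The log2 fold change was 0.87 ± 0.33 (SE; adjusted p = 0.254 by edgeR's quasi-likelihood test). Rpl28 (1.01), Rps23 (0.92) and Rpl41 (0.89) were highest. Rpl10 (−0.04) was the only member below 0, and Rpl17 (0.04) and Rpl13 (0.04) came next. Rps6, Rps19 and Rplp0 had 0.39, 0.65 and 0.46.

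The family median in STAT5B-hairpin cells was 0.20 without the 5 libraries rich in reads outside genes, with 69 members positive. It was 0.034 without both classes, with 43 positive and 35 negative. The summed level of the 8 myeloid markers was 285 to 811 CPM in STAT5B-hairpin cells, against 141 to 272 CPM in no-target cells. Of the 8, 1 was called higher, and their part was not tested. Of the 15 mTORC1 components and TOP regulators, Rps6kb1, which encodes the S6 kinase, fell by 0.79 (adjusted p = 0.0339 by edgeR's quasi-likelihood test). It had 36.5 to 47.6 CPM in STAT5B-hairpin cells, against 57.6 to 83.6 CPM in no-target cells. This call was lost in 10 of 16 alternatives, among them the fit that leaves out the 5 libraries rich in reads outside genes (adjusted p 0.0015 to 0.662 over the 16), while the log2 fold change lay between −0.90 and −0.56 in all 16.

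LSD1-hairpin cells were set against the same 5 controls. Positive values were found for 58 members and negative ones for 20, with a median of 0.12, against −0.02 over all genes. edgeR's quasi-likelihood test called 0 members, against 0.166% of all genes, as did DESeq2. Only Rpl3l had an unadjusted p under 0.05, against 6.71% of all genes. The groups overlapped for every member, while 1.71% of all genes stood wholly higher and 1.09% wholly lower in LSD1-hairpin cells. It had 2.77, 13.4 and 5.64 CPM in LSD1-hairpin cells, against 3.65, 4.50, 2.79, 5.60 and 2.38 CPM in no-target cells, so that replicate 2 alone stood far above the controls. Its log2 fold change was 0.96 ± 0.37 (SE; adjusted p = 0.549 by edgeR's quasi-likelihood test), and 0.18 without that library. The family median was −0.18 without LSD1-hairpin replicate 2, 0.38 without replicate 1 and −0.013 without no-target replicate 3. Without the 5 libraries rich in reads outside genes it was again 0.12. Besides Rpl3l, Rpl26 (0.41) and Rps23 (0.37) were highest, and Rpl34 (−0.14), Rpl8 (−0.11) and Rplp2 (−0.09) were lowest. The summed level of the 8 myeloid markers was 349 to 562 CPM in LSD1-hairpin cells, against 141 to 272 CPM in no-target cells, with 0 of the 8 called and their part not tested.

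HDAC3-hairpin cells had negative values for 67 members and positive ones for 11, with a median of −0.12, against 0.00 over all genes. edgeR's quasi-likelihood test and DESeq2 called 0 members, against 0.0248% of all genes by edgeR, and 0 members had an unadjusted p under 0.05, against 5.69% of all genes. The groups overlapped for every member, while 0.861% of all genes stood wholly higher and 1.59% wholly lower in HDAC3-hairpin cells. Rpl29, a large-subunit protein, had the lowest log2 fold change (−0.48 ± 0.43, SE), followed by Rplp1 (−0.31) and Rps20 (−0.30). Rps27 (0.28), Rpl10 (0.15) and Rpl26 (0.14) were highest. The summed level of the 8 myeloid markers was 120 to 353 CPM in HDAC3-hairpin cells, against 141 to 272 CPM in no-target cells, and its part was not tested. The direction differed with the libraries included. Without the 5 libraries rich in reads outside genes, which leaves 1 HDAC3-hairpin library assumed to vary like the other groups, 75 of 78 members were positive with a median of 0.27. Without HDAC3-hairpin replicate 3 the median was −0.68, and without replicate 1 or 2 it was 0.093 or 0.078. Mitochondrial ribosomal protein genes had a median of −0.18 with 0 called.

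No-target cells were also set against IL3-stimulated wild type, from which they differ by transduction and selection. The groups differ in library class too: no-target replicates 1 and 3 were rich in reads outside genes, and no wild-type library was. The part of each was not tested. The median log2 fold change of the members was −0.35, with 66 negative and 12 positive, against 0.01 over all genes. edgeR's quasi-likelihood test called 0 members and 0.0% of all genes, and DESeq2 called 126 genes and 0 members. Unadjusted p under 0.05 was reached by 5 members, against 16.9% of all genes. For 4 members, among them Rpl4, Rpl22 and Rpl30, every no-target library lay below every wild-type library, as did 3.0% of all genes. No member stood wholly higher, against 2.35% of all genes. Of 6 erythroid markers, only Klf1 and Gata1 reached 1 CPM, and their summed level was 196 to 354 CPM in no-target cells, against 333 to 517 CPM in stimulated wild type, with 0 called and a median log2 fold change of −0.93. The part of these markers in the ribosomal protein values was not tested, and Hba-a1, Hba-a2 and Hbb-bt were at 0 in every library.

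Rpl26 (−0.83, at 2.81 CPM per kb) and Rps27 (−0.65) were among the lowest. Rpl10 (0.95), Rpl17 (0.83) and Rpl23a (0.31) were highest, the same 3 whose levels varied together between libraries. Without the 5 libraries rich in reads outside genes the family median was −0.09, and without both classes it was 0.016 with 40 members positive and 38 negative.

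**Figure D5:**
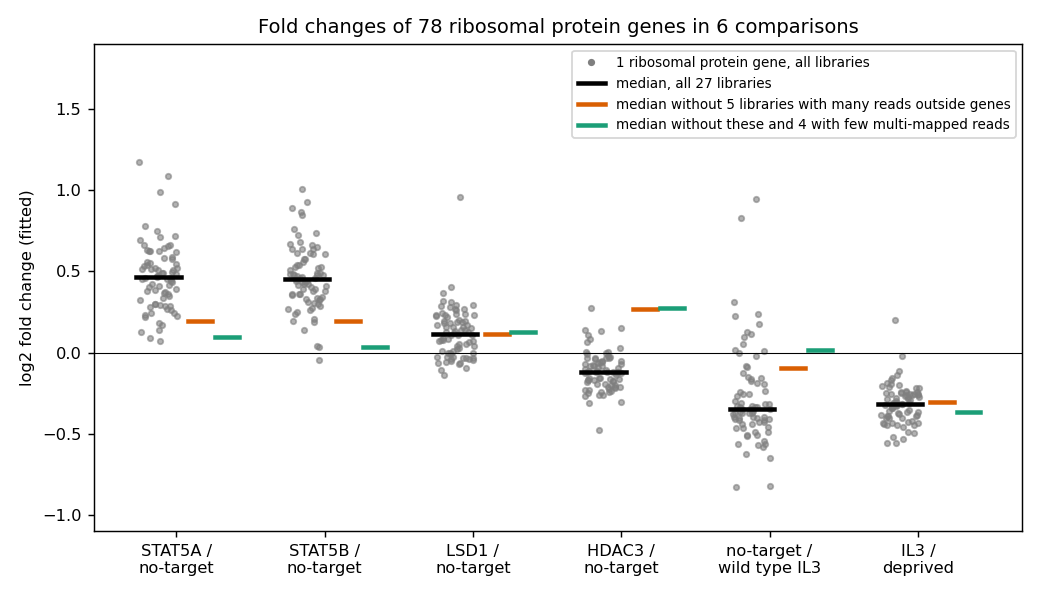
Fitted log2 fold changes of 78 ribosomal protein genes in 6 comparisons (points, all 27 libraries; the first-named condition over the second), with the median over members from all libraries, without the 5 libraries rich in reads outside genes, and without these and the 4 with few multi-mapped reads. The medians after STAT5A and STAT5B hairpins shrink toward 0 (0.46, 0.20 and 0.10; 0.46, 0.20 and 0.034), that after HDAC3 hairpin changes sign, and that for IL3 against deprived wild type stays between −0.36 and −0.31.

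Other gene groups of the translation machinery were read in the same comparisons. Mitochondrial ribosomal protein genes had medians of 0.18 in STAT5A-hairpin, 0.33 in STAT5B-hairpin and −0.01 in LSD1-hairpin cells against no-target cells, and −0.30 in no-target cells against wild type, with 0 of 76 called in each. Translation factors and other TOP mRNAs had 0.24, 0.28, −0.03 and −0.24 in the same order, and −0.14 in HDAC3-hairpin cells, with 0 of 20 called in each. Assembly factors and chaperones had −0.19, −0.07, −0.37, 0.22 and −0.14 in STAT5A-, STAT5B-, LSD1- and HDAC3-hairpin cells against no-target cells and in no-target cells against wild type, with 0 of 24 called in each. The 4 hairpin comparisons share their 5 controls, so their values are not independent of each other.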

How the data were processed

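PolyA RNA of 27 Ba/F3 libraries was analysed. The authors deposited 1 file of unnormalized read counts by gene symbol for each library; the tools named are Trimmomatic 0.30, TopHat2 2.0.10, HTSeq 0.5.4p5 and DESeq2 1.2, with the mm10 build, per the submitters' processing notes. Step order, counting mode, strand setting and annotation are not given in the sources used here. The 5 summary lines stayed out of library sizes and tests. Reads outside genes made up 8.70 to 24.9% of reads.

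All 27 libraries entered 1 edgeR 4.0.16 quasi-likelihood fit (R 4.3.3; robust option, trimmed mean of M values (TMM) factors, filterByExpr, a mean per group, no covariate), which tested 12073 genes. CPM are TMM-scaled. Calls needed a Benjamini-Hochberg adjusted p under 0.05. Groups were taken from the labels, which call libraries of a group biological replicates; p-values measure the spread between these libraries. Replicate libraries differed beyond counting noise in all 42 pairs (chi-square over degrees of freedom 10.4 to 164.5). Same-numbered wild-type libraries deviated together (r 0.375 to 0.716, 5 of 5 pairs); elsewhere at most 2 of 3 pairs did.

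Members, lists, tests and the rule for naming genes were chosen with earlier results of these data known. Named were paralogues and their parents, members with roles outside the ribosome or at its stalk, the 3 highest and 3 lowest fold changes per comparison, the 5 highest and 5 lowest levels, and called genes of other lists; other names were chosen after their values were seen. Transcript lengths and shared 50-base windows came from GENCODE vM21, 1 transcript per gene, and start-site windows from RefSeq (GRCm38.p6). Alternatives were relative log expression (RLE) factors, scaling without members, no filter, DESeq2 1.42.0, fits restricted to the compared groups, a replicate block, leaving out each library, and leaving out 1 or both library classes (the second chosen after seeing the data). A few genes are not reported here.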

Additional observations from a re-analysis of the deposited data

Results flagged for a closer look

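In groups of 5 libraries, a single library stood apart from the other 4 by Dixon's criterion in 11 of 102 checks. Chance flags about 1 in 20 of independent and unselected checks. Deprived wild-type replicate 3 accounted for 9 of them: Rplp1 at 11537 CPM, Rpl8 at 9976, Rpl32 at 6253, Rps20 at 4170, Rplp2 at 3430, Rps21 at 3120, Rps27l at 463.3 and Rpl3l at 10.2 CPM, and a mitochondrial ribosomal protein share of 0.800%. The nearest library of the group had 6347, 6142, 3539, 2825, 1523, 1397, 278, 5.16 CPM and 0.605%. Wild-type replicate 2 was high for Rps23 in both conditions, at 609.6 CPM with IL3 and 643.1 CPM without, where the nearest libraries had 216 and 232 CPM. These checks are not independent, since the family moves together within a library. Nor are they unselected, since several of the flagged genes were named for extreme fold changes in these data. The rate of 1 in 20 is thus no fair reference for them.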

How the results depend on the processing

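In every comparison and alternative run, 0 members were called. The median member log2 fold change was −0.43 to −0.20 over fits that leave out 1 library for IL3 against deprived wild type, 0.35 to 0.58 for STAT5A, 0.30 to 0.60 for STAT5B, −0.18 to 0.38 for LSD1 and −0.68 to 0.093 for HDAC3 hairpin against no-target, and −0.43 to −0.22 for no-target against wild type. It turned for LSD1 without LSD1-hairpin replicate 2 (−0.18) or no-target replicate 3 (−0.013). It turned for HDAC3 without HDAC3-hairpin replicate 1 (0.093) or 2 (0.078), without the libraries over 13% outside genes (0.27), without both classes (0.28) and with the replicate block (0.025). For no-target against wild type it turned without both classes (0.016). The cause was not tested. Replicate numbers do not pair the hairpin libraries; the block, fitted to the shared numbers of the compared groups alone, gave medians of 0.74 for STAT5A, 0.71 for STAT5B, 0.32 for LSD1 and −0.36 for no-target against wild type. The pairing changed no call of a member.

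The alternatives gave 3200 results for those of the 35 named members that passed the filter on low counts. Of these, 0 were called and 317 uncalled values changed sign. Group means of the summed share moved by less than 1 SD with pseudogenes added or the 10 highest other genes left out of the total. Counts cover PCR copies as well as molecules, and Rpl26, Rps27, Rpl30 and Rpl34 rest on 650 to 5981 reads over all 27 libraries. DESeq2 called 32, 151, 46, 10 and 126 genes for STAT5A, STAT5B, LSD1 and HDAC3 hairpins and no-target against wild type, where edgeR called 8, 41, 20, 3 and 0. Without the libraries over 13% outside genes, edgeR called 876 genes for IL3 against deprived wild type, against 461 with all libraries. Fits to the compared groups alone called 1170 genes for that comparison, 0, 1, 0 and 0 for STAT5A, STAT5B, LSD1 and HDAC3 hairpins, and 26 for no-target against wild type.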
